A study of Homo sapiens with 24 samples.

Results

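The stiffness response of cells without RAP2 was read from 6 of the 24 libraries of the series. They were the 3 libraries of RAP2A/B/C triple-knockout cells (RAP2 tKO) on hydrogels of 40 kPa, a stiff matrix, and the 3 of the same cells on hydrogels of 1 kPa, a soft matrix. Gene levels were deposited as FPKM, the estimated number of sequenced fragments of a gene scaled by transcript length and library depth. Levels of entries that share a symbol were summed, and a gene was kept where its FPKM was at least 1 in at least 3 of the 6 libraries. This left 14224 of 58174 gene symbols.

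All libraries came from HEK293A, a line of adherent human embryonic kidney cells, grown with serum and seeded on gels coated with fibronectin. The other genotypes were wild type (WT), LATS1/2 double knockout (LATS dKO) and YAP/TAZ double knockout (YAP/TAZ dKO), each with 3 libraries per stiffness. How the knockouts were made, and whether each stands for 1 clone, is not stated, so RAP2 loss and the features of a single line cannot be told apart. The series calls its replicates biological, without saying which cultures they came from, so that p-values measure the spread between these libraries only.

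RAP2A, RAP2B and RAP2C are small GTPases of the RAS superfamily. On a soft matrix, phospholipid signals and the exchange factors RAPGEF2 and RAPGEF6 load RAP2 with GTP. Active RAP2 binds the kinases MAP4K4, MINK1 and TNIK and the GTPase-activating protein ARHGAP29, and through them favours the Hippo kinases LATS1 and LATS2, which hold the coactivators YAP and TAZ in the cytoplasm. On a stiff matrix YAP and TAZ enter the nucleus and act with TEAD transcription factors on target genes such as CTGF, CYR61 and ANKRD1. The comparison asks which genes still follow matrix stiffness when RAP2 is absent.

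The 6 libraries held an estimated 30.05 to 39.13 M fragments, against 20.13 to 44.08 M over all 24 libraries. The HEK293 markers VIM, KRT8, KRT18, NEFL and CDH2 were detected, and the list of 7 summed to 912.8 to 933.5 FPKM on 40 kPa and 799.9 to 829.5 FPKM on 1 kPa. The markers PAX2, at 0.171 to 0.332 FPKM on 40 kPa and 0.284 to 0.397 FPKM on 1 kPa, and NEFM, at 0.0210 FPKM or less in all 6, were close to 0. Marker lists of other cell types summed to at most 8.31 FPKM for fibroblasts, 0.381 for endothelial cells and 1.95 for immune cells in any of the 6 libraries. DCN, a fibroblast marker, and PTPRC, an immune marker, were listed at 0 in all 6. The highest single members of these lists reached 5.87 FPKM for fibroblasts and 1.48 FPKM for immune cells. Neuronal markers summed to 13.0 to 15.8 FPKM on 40 kPa and 12.9 to 15.95 FPKM on 1 kPa. In a bulk library, fewer cells of a kind and less RNA per cell cannot be told apart.

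Of the 6 libraries, 1 stood apart. In the 40 kPa replicate 3, the difference from the 1 kPa mean ran with the GC content of the transcripts, with a rank correlation of -0.68 across genes, against -0.08 and -0.10 in replicates 1 and 2 (genes share a library and are not independent). Its median log2 difference was 0.21 for genes under 40% GC and -1.30 for the 375 genes over 65% GC, as the plot by GC content shows. The SD of the log2 difference between replicates was 0.40 between 40 kPa replicates 1 and 2 and 0.625 and 0.65 between each of these and replicate 3. Between 1 kPa replicates it was 0.403 to 0.428. Calls of the named genes that were lost without this library are therefore marked as such below, and the other named calls were kept without it.

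**Figure D1:**
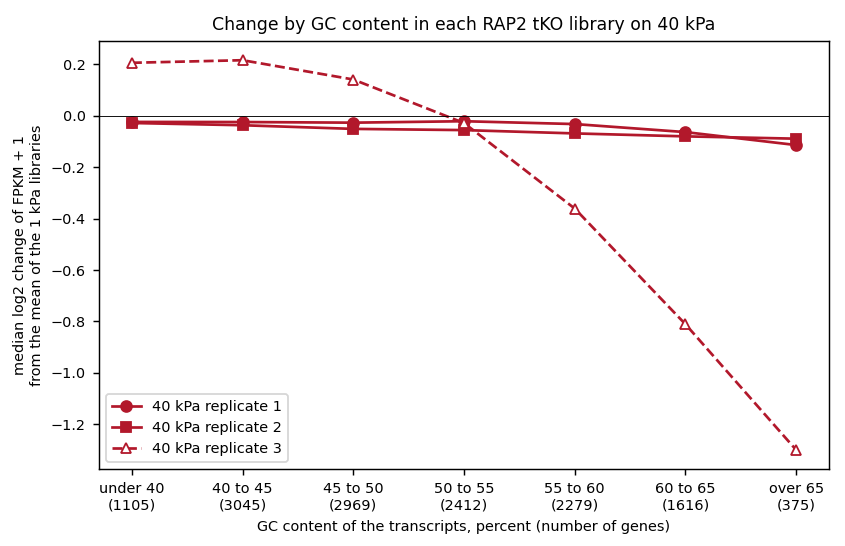
Median log2 difference of FPKM + 1 from the mean of the 1 kPa libraries, for genes grouped by the GC content of their transcripts, in each RAP2 tKO library on 40 kPa. Replicates 1 and 2 stay close to 0 in all groups, and replicate 3 (open triangles) lies above 0 for GC-poor genes and down to -1.30 for the GC-richest.

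A gene was called, and is said to have risen or fallen on 40 kPa, where limma's moderated test on log2(FPKM + 1) gave a Benjamini-Hochberg adjusted p below 0.05. The scale understates changes of genes near or below 1 FPKM. The test pooled the spread of all 24 libraries. Of the 14224 genes, 643 (4.52%) were called, 164 higher (1.15%) and 479 lower (3.37%) on 40 kPa. Only 31 of the 643 changed by at least 2-fold on this scale, 5 higher and 26 lower. The median log2 change of all genes was -0.04, and 57.6% of genes lay below 0. When libraries were first scaled so that their median ratios matched, 358 genes (2.52%) were called higher and 341 (2.4%) lower, and after a correction for GC content 593 (4.17%) were called higher and 460 (3.23%) lower, so the excess of falls was not kept under either. The stiff and soft libraries did not overlap for 639 of the 643 called genes, and for 23.1% of all genes tested. For 94 of the 14224 genes all libraries of one stiffness lay below 1 FPKM, so that they entered the test through the other stiffness alone. Members of this kind, CHAC1, EGR3, NUPR1 and TGFB2 among them, are left out of the list counts and are given in the text by their values with no test. The shares over all genes given beside the lists keep the 94. Without them 1.13% of genes were called higher and 3.26% lower. The lists were chosen with earlier results of these data known. Their shares beside those of all genes are therefore descriptive and were not tested.

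Without the 40 kPa replicate 3, 346 genes (2.43%) were called, 79 higher (0.555%) and 267 lower (1.88%). Of these, 274 were also called with it, which is 42.6% of the 643 and 79.2% of the 346. The 40 kPa replicate 1 of LATS dKO, whose spread enters the pooled test, was also taken as GC-skewed. Without both libraries 844 genes were called, 214 higher and 630 lower. Why calls were lost without replicate 3 alone was not tested. All 643 kept their direction without replicate 3. For the 639 whose stiff and soft libraries did not overlap, this was fixed in advance. The genes called lower had a median GC content of 56.0%, those called higher 48.6% and all genes 49.6%. Among genes called in both fits the medians were 54.8% for the lower and 49.9% for the higher. A fit on the 6 libraries alone, whose spread rests on these libraries only, called 9 genes. Among them were ANKRD1, CYR61 and UBE2QL1, which rose, and EGR1 and H1F0, which fell. The other 4 were the small RNAs and clone-named entries MIR1302-3, RNU2-7P, RNU6-714P and RP11-667M19.1, each listed at 0 in all libraries of one stiffness.

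**Figure D2:**
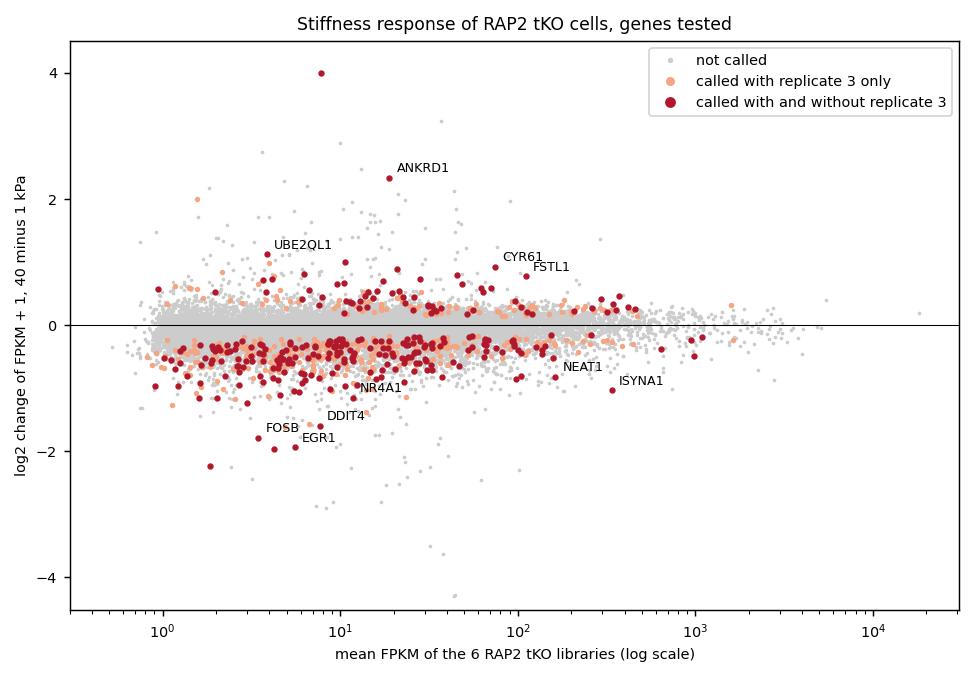
Mean FPKM of the 6 RAP2 tKO libraries (log axis) against the log2 change of FPKM + 1, 40 minus 1 kPa, for each of the 14224 genes tested; colours give the calls with and without 40 kPa replicate 3. ANKRD1 lies highest among the labelled genes, FOSB, EGR1 and DDIT4 lie lowest, and the red point near 4 is the small RNA RNU6-714P.

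The 3 targeted genes did not pass the test for stiffness. RAP2A stood at 7.26, 7.08 and 6.03 FPKM on 40 kPa and 5.76, 5.96 and 7.35 FPKM on 1 kPa, with a log2 change of 0.09. RAP2B stood at 5.57, 5.53 and 4.67 FPKM on 40 kPa and 5.53, 6.04 and 5.64 FPKM on 1 kPa, with -0.11. RAP2C stood at 18.5, 20.3 and 25.04 FPKM on 40 kPa and 17.8, 21.7 and 23.2 FPKM on 1 kPa, with 0.02. The stiff and soft libraries overlapped for each of the 3 (limma adjusted p = 0.33 to 0.936). Transcripts of all 3 genes were thus present in the libraries labelled RAP2A/B/C-tKO, and in WT they averaged 8.78, 4.28 and 19.0 FPKM on 40 kPa and 7.92, 4.57 and 17.9 FPKM on 1 kPa. A gene-level FPKM does not read a small edit of the coding sequence, so it does not check the knockout.

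ANKRD1, CYR61 and CTGF, the classical targets of YAP, TAZ and TEAD, rose on the stiff matrix in cells without RAP2, and most other targets did not pass the test. Of 18 genes of a 22-gene signature, these 3 rose (16.7%, beside 1.15% of all genes) and 1 fell (FOXF2), with a median log2 change of 0.16 beside -0.04 over all genes. Without replicate 3, 4 of them rose and 1 fell. After GC correction, and with TGFB2 included, 6 rose and none fell, beside 4.17% and 3.23% of all genes. ANKRD1, a nuclear ankyrin repeat protein, CYR61 and CTGF, both secreted matricellular proteins, led the signature. Promoters of ANKRD1 and CTGF are shown because they are classical TEAD targets among the largest rises, together with that of EMILIN2, a rising matrix gene described further on. The capitals mark GGAATG, the core of the TEAD binding site, searched on both strands in the 250 bases before the start of the gene (RefSeq, GRCh38.p14; chr10:90921088-90921337, chr6:131951373-131951622 and chr18:2846756-2847005, on the minus, minus and plus strands).
ANKRD1: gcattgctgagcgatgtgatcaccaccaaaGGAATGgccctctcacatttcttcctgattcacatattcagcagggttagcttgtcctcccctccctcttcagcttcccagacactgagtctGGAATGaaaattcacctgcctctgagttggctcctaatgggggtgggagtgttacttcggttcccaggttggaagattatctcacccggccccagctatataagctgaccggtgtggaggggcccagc
CTGF: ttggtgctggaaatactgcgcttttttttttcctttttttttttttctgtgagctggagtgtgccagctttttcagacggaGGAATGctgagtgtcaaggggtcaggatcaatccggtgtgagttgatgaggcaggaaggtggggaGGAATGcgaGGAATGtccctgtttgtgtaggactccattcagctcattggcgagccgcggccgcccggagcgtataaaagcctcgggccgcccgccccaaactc
EMILIN2: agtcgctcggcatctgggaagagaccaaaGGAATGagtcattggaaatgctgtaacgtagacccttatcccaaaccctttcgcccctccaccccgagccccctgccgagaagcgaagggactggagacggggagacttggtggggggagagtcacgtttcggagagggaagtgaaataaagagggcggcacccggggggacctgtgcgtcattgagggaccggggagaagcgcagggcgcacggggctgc
The motif occurred 2 times before ANKRD1, 3 times before CTGF and 1 time before EMILIN2. It was absent before the other largest rises with a window, UBE2QL1, AP1M2, ATF3, FSTL1, HBEGF, AJUBA, SAMD4A, TUFT1, SNAPC1 and STK17A. Among the largest falls with a window, CCDC78 and JADE2 alone held it. Of all 27305 promoter windows 11.9% held it, and of the 16 signature genes with a window 6 did. A match describes these letters and is not evidence of binding.

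ANKRD1 (hg19 chr10:92671853-92681033) stood at 29.9, 30.5 and 36.7 FPKM in the 3 libraries on 40 kPa, against 5.06, 5.80 and 5.85 FPKM on 1 kPa. Every stiff library lay far above every soft one. The log2 change was 2.34 ± 0.10 (SE; limma adjusted p = 3.1e-11), and 2.25 without replicate 3. No other named gene changed as much in either direction on this scale.

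CYR61 (hg19 chr1:86046444-86049645) reached 100.1, 105.7 and 89.2 FPKM on 40 kPa, against 51.7, 51.5 and 50.1 FPKM on 1 kPa. The groups did not overlap, and the soft libraries lay close together. The change was 0.93 ± 0.09 on the log2 scale (SE; limma adjusted p = 3.81e-06), and 1.00 without replicate 3.

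CTGF (hg19 chr6:132269316-132272513) stood at 60.2, 61.8 and 57.2 FPKM on 40 kPa and at 38.4, 37.0 and 37.9 FPKM on 1 kPa. The groups were again apart. Its log2 change was 0.65 ± 0.05 (SE; limma adjusted p = 1.1e-06), and 0.68 without replicate 3. TGFB2, a ligand of the TGF-beta family, was low, with 1.25, 1.36 and 2.32 FPKM on 40 kPa and 0.552, 0.609 and 0.948 FPKM on 1 kPa, and was tested through the stiff libraries alone. Its log2 difference was 0.62, and 0.44 without replicate 3.

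AMOTL2, an angiomotin that binds YAP, was called only without the divergent library. It stood at 68.1, 71.6 and 39.8 FPKM on 40 kPa, against 45.2, 45.1 and 39.1 FPKM on 1 kPa. The low stiff value was that of replicate 3, and it fell inside the range of the soft libraries. The log2 change was 0.42 with limma's adjusted p at 0.20, against 0.69 and an adjusted p of 0.0357 without that library. FOXF2, a forkhead factor, averaged 9.59 ± 0.34 FPKM on 40 kPa and 12.04 ± 0.89 FPKM on 1 kPa (SD, n = 3 each), a fall of 0.30 on the log2 scale (limma adjusted p = 0.0153) that a GC correction turned to a rise of 0.05, not called.

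The other 13 tested members of the signature did not pass the test. The highest of them were CRIM1, with a log2 change of 0.54 (limma adjusted p = 0.16), CCDC80 with 0.41 (adjusted p = 0.129) and MYOF with 0.35 (adjusted p = 0.0802). The lowest was LATS2, itself a target that feeds back on YAP, with -0.26 (adjusted p = 0.427). IGFBP3, FJX1, ARHGEF17, PTPN14, DOCK5, ASAP1, F3, GADD45A and RBMS3 lay between -0.19 and 0.19.

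In the pathway that controls YAP, 3 of 28 tested Hippo genes rose (10.7%, beside 1.15% of all genes) and none fell, with a median log2 change of 0.07. Without replicate 3 the number was 4 (beside 0.555% of all genes), and after GC correction 5 (beside 4.17%). The 3 were AJUBA, a LIM protein that inhibits LATS kinases, WWC2, a relative of the upstream regulator KIBRA, and TEAD1, a DNA-binding partner of YAP. AJUBA reached 31.5, 34.8 and 39.4 FPKM on 40 kPa, against 22.7, 20.2 and 19.5 FPKM on 1 kPa, without overlap (log2 change 0.73, limma adjusted p = 0.00262; 0.65 without replicate 3). WWC2 averaged 23.2 ± 3.32 and 15.9 ± 0.94 FPKM on 40 and 1 kPa (SD, n = 3 each; 0.51, adjusted p = 9.33e-04; 0.40 without replicate 3), and TEAD1 26.2 ± 1.11 and 20.3 ± 1.39 FPKM (0.36, adjusted p = 0.00506; 0.38 without replicate 3).

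YAP1 stood at 31.0, 30.6 and 36.0 FPKM on 40 kPa and 30.2, 32.8 and 33.3 FPKM on 1 kPa, with overlapping groups (log2 change 0.02, limma adjusted p = 0.924). WWTR1, which encodes TAZ, averaged 29.1 ± 2.599 FPKM on 40 kPa and 27.3 ± 4.52 FPKM on 1 kPa (SD, n = 3 each; adjusted p = 0.592). Among 10 tested kinases and adaptors, LATS1 and LATS2 included, none was called.

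Of 12 tested partners of RAP2, 1 was called, higher (8.33%, beside 1.15% of all genes). After GC correction 3 were called higher, beside 4.17% of all genes. ARHGAP29 rose, with 4.87, 4.69 and 5.95 FPKM on 40 kPa and 3.48, 4.15 and 3.46 FPKM on 1 kPa (log2 change 0.39, limma adjusted p = 0.0413). It was no longer called without replicate 3 (0.30, adjusted p = 0.178). MAP4K4 had a log2 change of 0.05 (adjusted p = 0.614). TNIK was called lower only without that library (-0.70, adjusted p = 0.0181, against -0.41 and 0.203 with it).

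**Figure D3:**
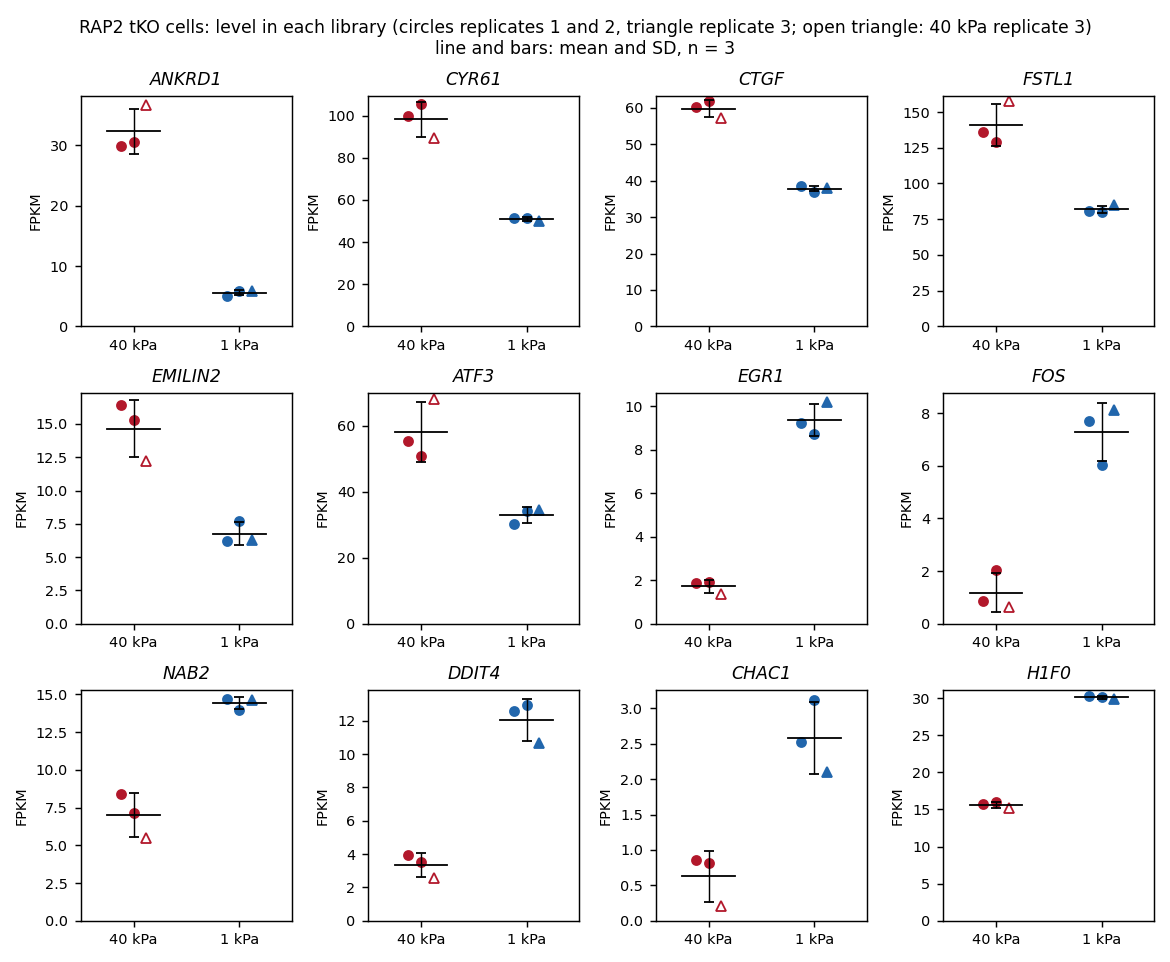
FPKM of 12 named genes in each RAP2 tKO library, 40 kPa on the left and 1 kPa on the right of each panel, with mean and SD (n = 3); the open triangle is 40 kPa replicate 3. The 2 groups do not overlap for any of the 12 genes. For all but CHAC1 this was a condition for naming them, and 23.1% of all genes tested did not overlap.

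Immediate-early genes, which cells switch on within minutes of growth factor or stress signals, included the 3 largest of the named falls, FOS, EGR1 and FOSB. Of 27 genes, 8 fell (29.6%, beside 3.37% of all genes) and 2 rose, with a median log2 change of -0.31 (7 fell and 3 rose without replicate 3). With EGR3 included, the median was -0.316, and -0.186 without replicate 3 and -0.215 after GC correction. The median GC content of the list was 57.5%, beside 49.6% of all genes. The falls were EGR1, FOS, FOSB, JUNB, NAB2, NR4A1, KLF10 and BTG2. The rises were ATF3 and DUSP1. EGR1 encodes a zinc finger factor, and its promoter is shown because serum response factor (SRF) drives it through CArG boxes, which the capitals mark (RefSeq, GRCh38.p14, chr5:138465229-138465478, plus strand).
EGR1: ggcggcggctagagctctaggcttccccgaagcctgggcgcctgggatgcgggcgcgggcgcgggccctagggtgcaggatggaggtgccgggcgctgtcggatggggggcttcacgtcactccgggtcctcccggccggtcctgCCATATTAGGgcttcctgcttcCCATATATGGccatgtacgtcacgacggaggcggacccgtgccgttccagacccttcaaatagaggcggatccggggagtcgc
The CArG box was searched on both strands. It occurred 2 times before EGR1, in 1.14% of all 27305 windows, and in 1 of the 24 immediate-early genes with a window.

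EGR1 (hg19 chr5:137801179-137805004) was at 1.85, 1.93 and 1.38 FPKM on 40 kPa, against 9.24, 8.72 and 10.2 FPKM on 1 kPa. All stiff libraries were several times below all soft ones. The log2 change was -1.94 ± 0.14 (SE; limma adjusted p = 1.22e-07), and -1.84 without replicate 3. NAB2, which binds EGR proteins and represses them, fell in the same libraries, to 8.38, 7.13 and 5.51 FPKM on 40 kPa, against 14.7, 13.9 and 14.6 FPKM on 1 kPa (-0.96 ± 0.10, adjusted p = 1.16e-05; -0.59 after GC correction). EGR3 averaged 0.30 ± 0.29 FPKM on 40 kPa and 1.504 ± 0.155 FPKM on 1 kPa (SD, n = 3 each), and was tested through the soft libraries alone.

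FOS (hg19 chr14:75745477-75748933), a subunit of the AP-1 factor, stood at 0.875, 2.02 and 0.645 FPKM on 40 kPa, against 7.70, 6.03 and 8.12 FPKM on 1 kPa. The groups did not overlap, although replicate 2 on 40 kPa lay above the other two. Its log2 change was -1.97 ± 0.26 (SE; limma adjusted p = 2.35e-04), and -1.79 without replicate 3. FOSB averaged 1.02 ± 0.53 FPKM on 40 kPa and 5.91 ± 1.49 FPKM on 1 kPa (SD, n = 3 each; -1.79, adjusted p = 0.00804; -1.54 without replicate 3). JUNB stood at 4.58, 4.60 and 0.712 FPKM on 40 kPa and 10.5, 9.80 and 10.1 FPKM on 1 kPa. It was called with the low replicate 3 (-1.56, adjusted p = 0.0231) and not without it (-0.99, adjusted p = 0.0937).

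NR4A1, an orphan nuclear receptor, was at 9.06, 8.47 and 3.96 FPKM on 40 kPa, against 16.8, 17.3 and 14.8 FPKM on 1 kPa. All stiff values lay below all soft ones (log2 change -1.15, limma adjusted p = 0.00606; -0.82 without replicate 3). KLF10, a zinc finger factor, fell with little spread, at 5.83 ± 0.07 FPKM on 40 kPa and 8.33 ± 0.18 FPKM on 1 kPa (SD, n = 3 each; -0.45, adjusted p = 4e-05; -0.46 without replicate 3).

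Not all members moved that way. ATF3, a stress-induced factor that pairs with JUN, rose to 55.4, 50.8 and 68.2 FPKM on 40 kPa, against 30.3, 34.2 and 34.4 FPKM on 1 kPa, without overlap (log2 change 0.79, limma adjusted p = 4.86e-04; 0.67 without replicate 3). DUSP1, a phosphatase of MAP kinases, averaged 25.6 ± 4.28 FPKM on 40 kPa and 17.2 ± 1.06 FPKM on 1 kPa (SD, n = 3 each; 0.54, adjusted p = 0.0081; 0.68 without replicate 3). JUN stood at 35.9, 35.6 and 19.4 FPKM on 40 kPa and 20.9, 23.0 and 20.8 FPKM on 1 kPa. It was called higher only without the low replicate 3 (0.71, adjusted p = 0.0185). MYC averaged 67.4 ± 13.2 and 72.8 ± 5.76 FPKM on 40 and 1 kPa and did not pass the test (adjusted p = 0.506).

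Genes that report the activity of the ERK kinases were tested beside them. Of 15, 3 fell (20.0%, beside 3.37% of all genes) and none rose, with a median log2 change of -0.18, and 2 fell without replicate 3. ETV4, an ETS factor, stood at 11.5, 12.1 and 8.95 FPKM on 40 kPa, against 19.1, 19.2 and 17.6 FPKM on 1 kPa, without overlap (-0.74, limma adjusted p = 0.00294; -0.62 without replicate 3). DUSP5, a nuclear ERK phosphatase, averaged 1.28 ± 0.20 FPKM on 40 kPa and 2.45 ± 0.41 FPKM on 1 kPa (SD, n = 3 each; -0.60, adjusted p = 0.0124; -0.66 without replicate 3). SPRY4, an inhibitor of receptor tyrosine kinase signalling, had -0.30 (adjusted p = 0.0417) and lost its call without replicate 3 (adjusted p = 0.122). DUSP6 had -0.15 and SPRY2 -0.14, and neither passed the test.

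SRF also acts with the cofactor MRTF on genes of the actin cytoskeleton. Of 30 tested, 4 rose (13.3%, beside 1.15% of all genes) and 2 fell (6.67%, beside 3.37%), with a median log2 change of 0.08. The count differed between fits. It was 1 rise and 1 fall without the divergent library, and 11 rises and 1 fall after GC correction (median 0.17). Of all genes 0.555% rose and 1.88% fell without that library, and 4.17% rose and 3.23% fell after GC correction. TPM1, an actin-binding tropomyosin, stood at 75.6, 68.9 and 80.7 FPKM on 40 kPa and 59.99, 48.3 and 47.7 FPKM on 1 kPa, without overlap (0.53, limma adjusted p = 0.00635; 0.47 without replicate 3). FHL2, CNN3 and MYH9 rose by 0.25 to 0.40, and TPM2 fell by 0.42. All 4 of these lost their call without replicate 3 (adjusted p = 0.0807 to 0.103). Smooth muscle actin ACTA2 fell, at 3.99 ± 0.49 FPKM on 40 kPa and 6.30 ± 1.26 FPKM on 1 kPa (SD, n = 3 each; -0.54, adjusted p = 0.032; -0.61 without replicate 3). The CArG box stood before 7 of the 28 genes of the list with a window.

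A second group of falls was the amino acid response led by the transcription factor ATF4, which raises amino acid synthesis and import when amino acids are short or the endoplasmic reticulum is stressed. Of 30 genes 11 fell (36.7%, beside 3.37% of all genes) and none rose, with a median log2 change of -0.28 (10 fell and 1 rose without replicate 3). With CHAC1 and NUPR1 included, the median was -0.289, and -0.218 without replicate 3 and -0.2 after GC correction. After that correction 16 of these genes fell and 2 rose, beside 3.23% and 4.17% of all genes. The median GC content of the list was 55.5%, beside 49.6% of all genes. CHAC1, which degrades glutathione, and ASNS, the asparagine synthetase, are shown with their promoters because they are well-known ATF4 targets whose windows hold the response element. The capitals mark TGATGNAAN, the amino acid response element, found on the minus strand for CHAC1 and on the plus strand of the printed sequence for ASNS (RefSeq, GRCh38.p14, chr15:40953221-40953470 on the plus strand and chr7:97872409-97872658 on the minus strand).
CHAC1: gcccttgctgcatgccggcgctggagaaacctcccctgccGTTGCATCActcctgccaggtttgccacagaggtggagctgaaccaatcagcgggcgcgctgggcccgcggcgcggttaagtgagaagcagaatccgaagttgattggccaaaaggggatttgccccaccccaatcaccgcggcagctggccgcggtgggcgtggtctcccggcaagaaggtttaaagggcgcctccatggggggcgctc
ASNS: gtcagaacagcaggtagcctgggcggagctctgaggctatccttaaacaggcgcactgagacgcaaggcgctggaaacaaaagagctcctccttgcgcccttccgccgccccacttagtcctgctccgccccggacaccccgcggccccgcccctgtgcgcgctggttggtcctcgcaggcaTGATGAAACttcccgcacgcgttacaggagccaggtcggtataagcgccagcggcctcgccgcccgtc
The element occurred 1 time in each, in 3.18% of all 27305 windows and in 3 of the 27 list genes with a window. It also occurred 1 time before ATF3, which rose and was counted with the immediate-early genes instead.

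DDIT4 (hg19 chr10:74033678-74035794), a stress-induced inhibitor of the growth kinase complex mTORC1, stood at 3.96, 3.52 and 2.55 FPKM on 40 kPa, against 12.6, 13.0 and 10.6 FPKM on 1 kPa. All stiff libraries were well below all soft ones. The log2 change was -1.60 ± 0.11 (SE; limma adjusted p = 6.72e-08), and -1.46 without replicate 3. SESN2, which inhibits mTORC1 when leucine is short, averaged 9.34 ± 1.93 FPKM on 40 kPa and 14.2 ± 0.91 FPKM on 1 kPa (SD, n = 3 each; -0.57, adjusted p = 0.00592; -0.41 without replicate 3). These were the 2 called genes among 13 tested regulators of mTORC1 (15.4%, beside 3.37% of all genes called lower).

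CHAC1 was low, at 0.858, 0.816 and 0.210 FPKM on 40 kPa and 2.53, 3.12 and 2.10 FPKM on 1 kPa, and was tested through the soft libraries alone. Its log2 difference was -1.15, and -0.95 without replicate 3. ASNS stood at 66.9, 61.9 and 80.3 FPKM on 40 kPa, against 94.2, 98.8 and 87.4 FPKM on 1 kPa, without overlap (log2 change -0.43, limma adjusted p = 0.0108; -0.53 without replicate 3). ATF4 itself differed by less, with 246.3 ± 13.5 FPKM on 40 kPa and 273.8 ± 9.95 FPKM on 1 kPa (SD, n = 3 each; -0.15, limma adjusted p = 0.0477), and was not called after GC correction (-0.06, adjusted p = 0.512).

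DDIT3, which encodes the stress factor CHOP, fell to 17.0, 17.9 and 19.5 FPKM on 40 kPa, against 24.7, 27.9 and 26.4 FPKM on 1 kPa (log2 change -0.51, limma adjusted p = 8.28e-04; -0.57 without replicate 3). The groups did not overlap. NUPR1, a stress-induced chromatin protein tested through the soft libraries alone, stood at 0.834, 0.308 and 0.410 FPKM on 40 kPa and 2.15, 1.67 and 1.94 FPKM on 1 kPa. CEBPB, a leucine zipper factor, and SLC6A9, a glycine transporter, fell by 0.68 and 0.81. After GC correction CEBPB had -0.19 and was not called (adjusted p = 0.332). Of the serine synthesis enzymes, PSAT1 fell by 0.21, with and without replicate 3, and PHGDH and PSPH by 0.31 and 0.27, with replicate 3 only. TRIB3, a pseudokinase, fell by 0.57 and was not called without replicate 3 (adjusted p = 0.0702). Not called were the amino acid carriers SLC7A11 at -0.34, SLC3A2 at 0.03 and the folate enzyme MTHFD2 at 0.01.

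Of 20 transfer RNA synthetases, several of which also answer to ATF4, 18 were not called, VARS rose by 0.23 and CARS fell by 0.34, with a median of 0.06. The called shares were 5.0% each way, beside 1.15% higher and 3.37% lower of all genes. Of 25 chaperones, 2 rose (8.0%, beside 1.15% of all genes) and none fell, with a median of 0.11. The rises were HSPA5, the main chaperone of the endoplasmic reticulum (120.5 ± 6.403 FPKM on 40 kPa and 103.9 ± 3.61 FPKM on 1 kPa, SD, n = 3 each; log2 change 0.21, limma adjusted p = 0.0081; 0.17 without replicate 3), and HSPA8, which lost its call without replicate 3 (adjusted p = 0.185). Without that library 2 rose and 1 fell, after GC correction 7 rose and 1 fell, and with scaled libraries 5 rose. Of all genes 0.555% rose without it, 4.17% after GC correction and 2.52% with scaled libraries. The fall without it was HERPUD1, a stress-induced protein of the endoplasmic reticulum (-0.28, adjusted p = 0.0181), and the second rise PDIA4, a disulfide isomerase (0.19, adjusted p = 0.0461), both chosen after their values were seen.

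**Figure D4:**
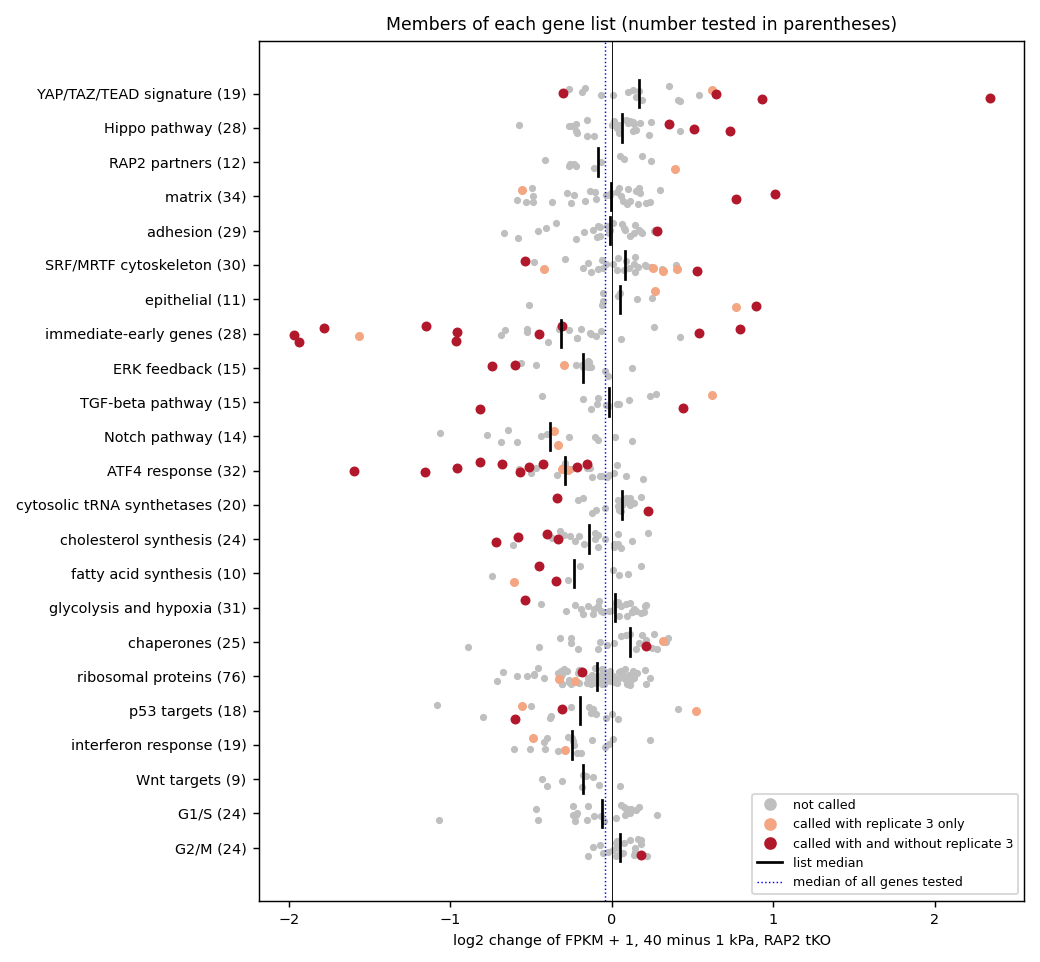
Log2 change of FPKM + 1, 40 minus 1 kPa, of the tested members of 23 gene lists in RAP2 tKO cells, 1 point per gene, coloured by its calls with and without 40 kPa replicate 3; the black bars are list medians and the dotted line the median of all genes. Called genes of the immediate-early and ATF4 lists lie mostly left of 0 and those of the YAP, TAZ and TEAD signature mostly right of it. Members tested through 1 stiffness alone are included in points, medians and numbers, although the text leaves them out of its counts. Of these, CHAC1, EGR3, NUPR1 and TGFB2 are coloured as called.

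Of 24 tested genes of cholesterol synthesis 4 fell (16.7%, beside 3.37% of all genes) and none rose, with a median of -0.14, and 4 fell without replicate 3. INSIG1, which retains the regulator SREBP in the endoplasmic reticulum, stood at 31.8, 32.2 and 38.9 FPKM on 40 kPa and 53.4, 47.3 and 54.2 FPKM on 1 kPa, without overlap (-0.58, limma adjusted p = 4.86e-04; -0.67 without replicate 3). The enzymes IDI1, HMGCS1 and TM7SF2 fell by 0.40, 0.33 and 0.72.

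Of 10 tested fatty acid genes 3 fell (beside 3.37% of all genes) and none rose, and 2 fell without replicate 3. The desaturase FADS2 stood at 122.2, 111.2 and 114.4 FPKM on 40 kPa, against 161.1, 153.7 and 161.1 FPKM on 1 kPa, without overlap (-0.45, limma adjusted p = 2.59e-04; -0.44 without replicate 3). FADS1 fell by 0.34. SREBF1, which encodes SREBP1, fell by 0.60 and lost its call without replicate 3 (adjusted p = 0.112).

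Among matrix genes 2 of 34 rose (5.88%, beside 1.15% of all genes) and 1 fell (2.94%, beside 3.37%), with a median of -0.01. After GC correction 5 rose, beside 4.17% of all genes. FSTL1 (hg19 chr3:120111140-120170100), a secreted glycoprotein, was the most abundant of the 15 largest rises, with 135.9, 129.4 and 157.6 FPKM on 40 kPa, against 80.5, 80.1 and 85.0 FPKM on 1 kPa. Every stiff library lay above every soft one (0.77 ± 0.07, limma adjusted p = 1.28e-06; 0.69 without replicate 3). EMILIN2 (hg19 chr18:2847028-2915991), an elastin-interface glycoprotein, stood at 16.4, 15.3 and 12.2 FPKM on 40 kPa and 6.20, 7.75 and 6.31 FPKM on 1 kPa, also apart (1.01 ± 0.12, adjusted p = 9.57e-05; 1.12 without replicate 3).

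LAMB2, a laminin chain, fell by 0.56 with replicate 3 and was not called without it (limma adjusted p = 0.0645). None of 10 collagens, 11 integrins and 12 adhesion adaptors was called. The integrins here include ITGB8, which was tested through the stiff libraries alone. In the adhesion list SDC2, a heparan sulfate proteoglycan, alone passed, at 114.9 ± 4.04 FPKM on 40 kPa and 94.4 ± 3.12 FPKM on 1 kPa (SD, n = 3 each; 0.28, adjusted p = 0.00224; 0.26 without replicate 3). The intermediate filament VIM averaged 289.2 ± 2.35 and 238.2 ± 7.36 FPKM on 40 and 1 kPa (0.28, adjusted p = 0.00294; also 0.28 without replicate 3). KRT8 rose by 0.27 (adjusted p = 0.0254) and lost its call without replicate 3 (adjusted p = 0.109). AP1M2, an epithelial clathrin adaptor, stood at 24.5, 27.7 and 30.2 FPKM on 40 kPa and 19.3, 12.5 and 12.04 FPKM on 1 kPa (0.89, adjusted p = 8.28e-04; 0.82 without replicate 3).

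Of 14 genes of the TGF-beta pathway 1 fell and 1 rose (7.14% each, beside 3.37% and 1.15% of all genes). TGFB1, which encodes the main ligand, stood at 28.5, 25.5 and 26.1 FPKM on 40 kPa, against 43.002, 47.7 and 53.1 FPKM on 1 kPa, without overlap (log2 change -0.82, limma adjusted p = 1.27e-04; -0.80 without replicate 3). SMAD7, an inhibitor of the pathway and one of its targets, rose, with 30.3 ± 2.61 FPKM on 40 kPa and 22.0 ± 1.67 FPKM on 1 kPa (SD, n = 3 each; 0.44, adjusted p = 0.00771; 0.40 without replicate 3). The other 12 did not pass, and TGFB2 was described above.

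None of 24 G1/S genes, 9 Wnt targets and 7 mechanosensitive channels passed. Of 24 G2/M genes CDCA8, a subunit of the chromosomal passenger complex, rose by 0.18 (4.17%, beside 1.15% of all genes). Of 18 p53 targets 3 fell (16.7%, beside 3.37% of all genes), BTG2, DDB2 and CDKN1A, and PLK2 rose. The calls of CDKN1A and PLK2 held with replicate 3 only. After GC correction 6 fell, beside 3.23% of all genes. The targets HEY1 and HEY2 among 14 Notch genes (14.3%) and IFITM1 and BST2 among 18 interferon genes (11.1%) fell with replicate 3. Without it they lost their call (limma adjusted p = 0.0761 to 0.134). Over all genes 3.37% fell with replicate 3. The Notch list, at a median GC content of 61.4%, had a median log2 change of -0.38 with that library and -0.18 without it. Of 76 ribosomal protein genes, whose near-identical copies may share fragments, 3 fell (3.95%), RPLP0, RPS20 and RPS13 by 0.18 to 0.33, and RPS13 alone kept its call without replicate 3. Of 31 genes of glycolysis and hypoxia 1 fell (3.23%), VEGFA, the vascular growth factor, by 0.54 (adjusted p = 0.00196; -0.53 without replicate 3).

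Further genes with the largest changes lay outside these lists. UBE2QL1 (hg19 chr5:6448736-6495022), a predicted ubiquitin-conjugating enzyme, stood at 5.57, 6.01 and 5.52 FPKM on 40 kPa, against 2.34, 1.94 and 1.88 FPKM on 1 kPa, without overlap (log2 change 1.14 ± 0.08, limma adjusted p = 6.55e-08; 1.15 without replicate 3). HBEGF, a ligand of the EGF receptor, averaged 5.39 ± 0.62 and 2.84 ± 0.27 FPKM on 40 and 1 kPa (0.73, adjusted p = 4.08e-04; 0.66 without replicate 3). SAMD4A, GPRC5A, TUFT1, SNAPC1 and STK17A rose by 0.55 to 0.70, all with and without replicate 3.

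H1F0 (hg19 chr22:38201100-38203443), a linker histone of slowly dividing cells, varied little within each group, at 15.7, 15.98 and 15.1 FPKM on 40 kPa and 30.3, 30.2 and 29.8 FPKM on 1 kPa. The groups were far apart (log2 change -0.90 ± 0.05, limma adjusted p = 1.82e-09; -0.88 without replicate 3). NEAT1, a nuclear noncoding RNA, stood at 109.2, 110.8 and 132.9 FPKM on 40 kPa, against 193.5, 220.7 and 207.3 FPKM on 1 kPa (-0.81, adjusted p = 1.5e-05; -0.91 without replicate 3). TSC22D3, a glucocorticoid-induced leucine zipper protein, DHRS3, which reduces retinal, and NFATC4, a calcineurin-regulated factor, fell by 0.90, 1.00 and 0.94.

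ISYNA1, the enzyme that makes inositol phosphate from glucose phosphate, was the most abundant of the 15 largest falls. It stood at 294.9, 279.2 and 122.6 FPKM on 40 kPa, against 482.9, 410.3 and 438.3 FPKM on 1 kPa. Replicate 3 lay far below the other stiff libraries, and the log2 change was -1.03 with it (limma adjusted p = 0.0174) and -0.62 without it (adjusted p = 0.0377). MAPK15, CCDC78, JADE2 and ZNF503-AS2 fell by 0.91 to 1.11, and ZNF503-AS2 may share fragments with the overlapping gene on the other strand. Of the genes named because they were called with replicate 3 only, NEXN, DNAJB4, RBM47 and PLK2 rose by 0.52 to 0.77, and CRIP2, ICAM5 and ZNF503 fell by 1.04 to 1.62. The read-through entries CHURC1-FNTB and COMMD3-BMI1 belong here too, and share their fragments with the genes they join.

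Set against WT, the response without RAP2 pointed mostly the same way. In WT, measured in 6 separate libraries, 155 genes (1.09%) were called in the same fit, 51 higher and 104 lower. Of the 164 genes that rose in RAP2 tKO cells 148 had a positive change in WT, and of the 479 that fell 442 had a negative one, while over all genes tested 62.3% had the same sign in both. Called in both, in the same direction, were 87 genes, which is 13.5% of the RAP2 tKO calls and 56.1% of the WT calls, and none was called in opposite directions. With LATS dKO cells 40 calls were shared in the same direction (6.22% of the RAP2 tKO calls and 36.0% of the 111, or 0.78% of genes tested, in LATS dKO) and 1 was opposite. The 40 kPa replicate 1 of LATS dKO was taken as a second GC-skewed library. Whether the skew bears on the shared calls was not tested. With YAP/TAZ dKO cells 18 were shared (2.80% of the RAP2 tKO calls and 32.1% of the 56, or 0.394% of genes tested, in YAP/TAZ dKO) and 5 were opposite. A larger number of calls in one genotype does not show a larger response, and the difference was tested gene by gene.

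The interaction, the response in RAP2 tKO cells minus that in WT cells, was called for 8 genes (0.0562%), against 943 at an unadjusted p below 0.05. CTGF rose less without RAP2 on the log2 scale, with a change of 0.65 in RAP2 tKO and 1.64 in WT (difference -0.99 ± 0.08, SE; limma adjusted p = 1.95e-06). Its levels were 59.7 ± 2.38 FPKM on 40 kPa and 37.8 ± 0.72 FPKM on 1 kPa in RAP2 tKO, against 22.5 ± 0.88 FPKM and 6.55 ± 0.37 FPKM in WT (SD, n = 3 each). In FPKM the gap between these means was larger in RAP2 tKO, so the direction of the difference depended on the scale. The mean of RAP2 tKO cells on the soft matrix lay above that of WT cells on the stiff one, a difference that was not tested.

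ANKRD1 went the other way on this scale, with 2.34 in RAP2 tKO and 1.43 in WT (difference 0.92 ± 0.14, SE; limma adjusted p = 0.00688). Its WT levels were low, at 4.02 ± 0.07 FPKM on 40 kPa and 0.877 ± 0.239 FPKM on 1 kPa (SD, n = 3 each). With a pseudocount of 0.1 in place of 1 the difference was 0.41 and was not called (adjusted p = 0.732), so the call depended on the scale. CYR61, at 30.5 and 14.8 FPKM in WT on 40 and 1 kPa, had a difference of -0.06 (adjusted p = 0.86). AMOTL2 had -0.96 (adjusted p = 0.42).

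EGR1 and ETV4 were among the 8. EGR1 had a log2 change of -1.94 in RAP2 tKO and -0.19 in WT, where it averaged 3.05 ± 0.82 FPKM on 40 kPa and 3.57 ± 0.27 FPKM on 1 kPa (difference -1.75 ± 0.20, SE; limma adjusted p = 4.71e-04). ETV4 fell in RAP2 tKO cells and averaged 14.8 ± 0.95 and 10.3 ± 0.83 FPKM in WT on 40 and 1 kPa (SD, n = 3 each; difference -1.22 ± 0.18, adjusted p = 0.00688; not called with a pseudocount of 0.1, adjusted p = 0.198). NAB2 had -0.15 in WT (difference -0.81, adjusted p = 0.0345), and lost the call after GC correction (-0.51, adjusted p = 0.575). FOS, FOSB and NR4A1 had differences of -1.06, -1.30 and -0.95, none of which passed (adjusted p = 0.64 to 0.69).

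Of the remaining 3, FSTL1 rose by 0.77 in RAP2 tKO and had 0.23 in WT (difference 0.54, limma adjusted p = 0.0345). KRT18, a keratin with many processed copies, stood at 287.1, 286.1 and 245.5 FPKM on 40 kPa and 262.4, 264.6 and 267.8 FPKM on 1 kPa in RAP2 tKO, and averaged 234.5 ± 8.28 and 143.9 ± 8.04 FPKM in WT (difference -0.66, adjusted p = 0.00241; -0.52 and 0.124 after GC correction). The stiff and soft libraries of RAP2 tKO cells overlapped for KRT18 (log2 change 0.04, adjusted p = 0.734). TNFRSF1A, a receptor of tumour necrosis factor, averaged 62.2 ± 2.91 and 73.4 ± 1.91 FPKM in RAP2 tKO and 69.9 ± 1.93 and 63.6 ± 1.94 FPKM in WT on 40 and 1 kPa (difference -0.37, adjusted p = 0.0349; -0.28 and 0.357 after GC correction). KRT18 and TNFRSF1A were chosen after their values were seen.

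**Figure D5:**
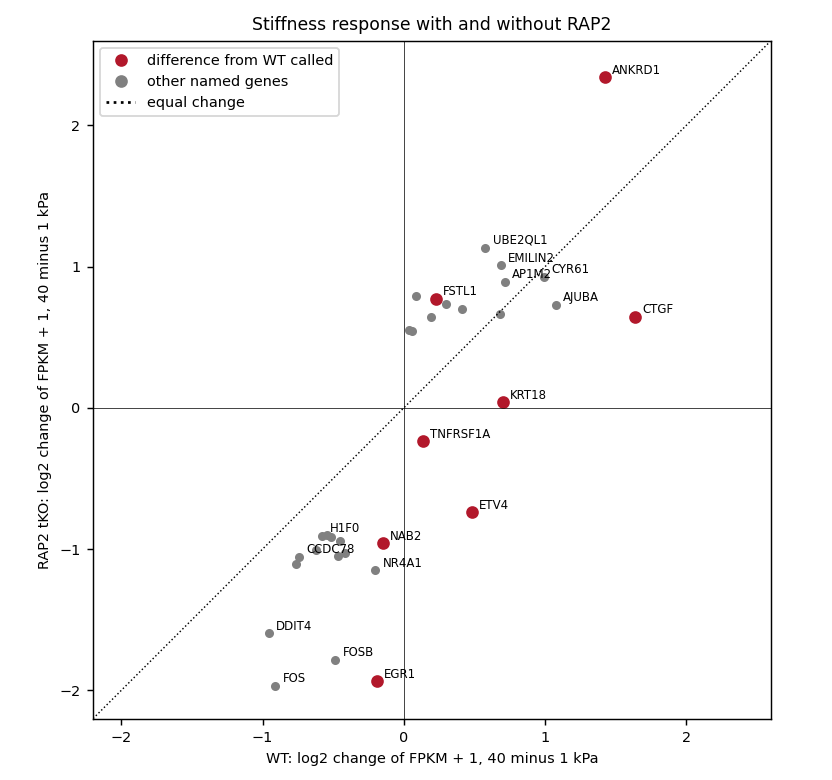
Log2 change of FPKM + 1, 40 minus 1 kPa, in RAP2 tKO cells (vertical) against WT cells (horizontal) for the 30 genes named for the largest rises and falls and the 8 genes whose change differed (red); the dotted line marks equal change. CTGF, KRT18, TNFRSF1A, ETV4, NAB2 and EGR1 lie below the line, and ANKRD1 and FSTL1 above it.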

How the data were processed

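The submitters' processing notes name STAR 2.4.2a, Cufflinks 2.2.1 and the build hg19. The authors deposited per library a table of gene FPKM values with confidence limits. No source used here gives the annotation release or strand setting, so overlapping and antisense genes may share fragments. RNA was poly(A)-selected, per the labels' protocols, with 2 index kits whose assignment to libraries is not given.

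Of 58266 symbols, 92 with a failed status in some library were left out. Depth was estimated, slightly low, from the deposited confidence limits of single-exon genes. log2(FPKM + 1) was fitted with limma 3.58.1 (R 4.3.3), 1 mean per group over 24 libraries (16 residual degrees of freedom), with a mean trend, two-sided tests and Benjamini-Hochberg adjustment over 14224 genes. The procedure was tested on simulated data. These held independent errors and no GC-dependent shift of a library, so they do not check the calls against the skew of replicate 3. GC content came from GENCODE v29 transcripts for 97.0% of genes.

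Members and gene lists were chosen with earlier results of these data known. Leaving members tested through one stiffness alone out of the list counts was chosen after seeing the data. Named genes were the 15 largest rises and falls called with and without 40 kPa replicate 3 (without overlap, higher mean at least 5 FPKM), 5 per direction called with it only, the targeted genes, the signature, called list members and genes differing from WT. Alternatives were other pseudocounts, filters, scalings, GC correction, library weights, a replicate block, other sets of libraries and each replicate left out.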

Additional observations from a re-analysis of the deposited data

Results flagged for a closer look

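For 8 genes the stiffness response of RAP2 tKO cells differed from that of WT cells by limma's interaction test (adjusted p below 0.05 over 14224 genes). The differences, RAP2 tKO minus WT on the log2 scale, were 0.92 for ANKRD1 and 0.54 for FSTL1, and -0.99 for CTGF, -1.75 for EGR1, -1.22 for ETV4, -0.66 for KRT18, -0.81 for NAB2 and -0.37 for TNFRSF1A. CTGF and EGR1 passed under every alternative tried. The other 6 failed the threshold under at least 1 alternative and kept their sign under every one. All 8 passed without the 40 kPa replicate 3, with adjusted p between 7.65e-06 and 0.0297. Whether the higher soft-matrix levels of CTGF and EGR1 in RAP2 tKO cells bear on these differences was not tested.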

How the results depend on the processing

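Of the genes named for the largest rises and falls, 5 of 30 were called under every alternative listed in the methods that tested them, ANKRD1, CYR61, UBE2QL1, EGR1 and H1F0. The count of called genes, 643 as reported, ranged from 253 to 1240 when 1 replicate was left out, and was 346 without the 40 kPa replicate 3, 253, 317 and 274 without 1 kPa replicates 1, 2 and 3, and 1240 and 1022 without 40 kPa replicates 1 and 2. It was 844 without both GC-skewed libraries and 1053 with a GC correction (593 higher and 460 lower, against 164 and 479 as reported). It was 1119 with library weights and 9 in the fit on these 6 libraries only. When scaled without the 40 kPa replicate 3, an alternative chosen after seeing the data, it was 301. The count of genes differing from WT, 8 as reported, ranged from 5 to 13 when 1 replicate was left out (13 without the 40 kPa replicate 3, 5 without any 1 kPa replicate), and was 17 without both GC-skewed libraries, 3 with a pseudocount of 0.1, 28 with library weights and 5 on the 12 libraries of the 2 genotypes. The GC-skewed libraries were the 40 kPa replicate 3 of RAP2 tKO and the 40 kPa replicate 1 of LATS dKO. The cause of the shifts in these counts was not tested.

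Libraries with the same replicate number shared little (correlations of their deviations 0.12, -0.0026 and 0.12), so the numbers were not taken as pairs. With the replicate block, 384 genes were called for stiffness and 5 for the difference.

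A sign turned for 7 named genes, of which only FOXF2 had been called (0.0452 after GC correction, with or without the block). The uncalled ones were RAP2B (0.0041, scaled without replicate 3), RAP2C (-0.094 without 40 kPa replicate 3 or both skewed libraries, -0.083 without 1 kPa replicate 1, -0.137 with weights, -0.0441 scaled without replicate 3), FJX1 (0.132 after GC correction, 0.00036 with weights, 0.042 scaled without replicate 3), GADD45A (-0.0393 to 0.0954 with 1 replicate left out), ARHGEF17 (-0.372 to 0.153 with 1 replicate left out, 0.153 without both skewed libraries, 0.113 after GC correction, 0.104 with weights, 0.202 scaled without replicate 3) and RBMS3 (-0.0911 to 0.451 with 1 replicate left out, -0.0911 without both skewed libraries, -0.0252 with weights, -0.0658 scaled without replicate 3). FPKM values hold no counts, so no counting intervals were given.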

Other observations

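Beyond the genes named by the rule, some further genes were called with and without the 40 kPa replicate 3 and were picked after their values were seen. NFKB2, a subunit of NF-kappaB, averaged 5.23 FPKM on 40 kPa and 10.1 FPKM on 1 kPa (log2 change -0.83, limma adjusted p = 2.87e-05), and TNFAIP2, a gene induced by tumour necrosis factor, 12.8 FPKM on 40 kPa and 21.4 FPKM on 1 kPa (-0.71, adjusted p = 0.00415). SAT1, the rate-limiting enzyme of polyamine breakdown, averaged 75.4 FPKM on 40 kPa and 132.6 FPKM on 1 kPa (-0.81, adjusted p = 1.55e-05). BHLHE40, a circadian repressor, averaged 2.86 FPKM on 40 kPa and 6.07 FPKM on 1 kPa (-0.87, adjusted p = 9.41e-06). KCTD12 averaged 6.47 FPKM on 40 kPa and 11.6 FPKM on 1 kPa (-0.76, adjusted p = 1.25e-08).

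Among the rises, TNFRSF12A, the receptor of the cytokine TWEAK, averaged 75.4 FPKM on 40 kPa and 48.1 FPKM on 1 kPa (0.59, limma adjusted p = 0.0447). DIAPH3, a formin that builds actin filaments, averaged 17.1 FPKM on 40 kPa and 11.6 FPKM on 1 kPa (0.52, adjusted p = 0.00545). The growth-related enzymes CTPS1, which makes CTP, and CS, the citrate synthase, averaged 460.0 and 382.8 FPKM on 40 kPa and 373.1 and 302.9 FPKM on 1 kPa (0.29 and 0.33, adjusted p = 0.0199 and 0.00342).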
